A study of Mus musculus with 3 samples.

Results

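The genes described here are 7 epithelial defence genes of the mouse small intestine, Reg3a, Reg3b, Reg3g, Reg1, Lypd8, Retnlb and Leap2. They were taken by symbol from the 31053 genes of the deposited UMI matrices, and each symbol matched 1 row. UMIs (unique molecular identifiers) mark single captured transcripts. Cells came from wildtype C57BL/6N mice, all male and 12 weeks of age, and all groups share this genotype and age, with no treatment named. Cells of 3 animals were pooled, live cells without propidium iodide stain were sorted from detached epithelium with its intraepithelial immune cells, and 1 droplet library was made from each of duodenum, jejunum and ileum. Because each segment is 1 pool, segments have no replicate and were not tested.

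The intestinal epithelium keeps bacteria at a distance with secreted and membrane-bound proteins. Reg3 proteins are secreted C-type lectins that bind bacterial cell walls, and their transcription is known to depend on microbial signals through MyD88 and on IL-22 through STAT3. Lypd8 is a GPI-anchored glycoprotein that binds flagellated bacteria and is best known from the colon. Reg1 (lithostathine) is a relative of the Reg3 lectins known from pancreas and upper gut, Retnlb (RELMβ) is a bactericidal protein best known from colonic goblet cells, and Leap2 encodes a peptide named for antimicrobial activity that blocks the ghrelin receptor.

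Filters were those of the study, at 800 to 50000 UMIs and between 200 and 6000 genes in a cell with a mitochondrial share of up to 40%, and left 16686 of 27235 barcodes. The share kept ran from 44.8% in the duodenum to 84.1% in the ileum. Median depth per kept cell was 12424 UMIs for duodenum, 11737 for jejunum and 5536 for ileum, and the median mitochondrial share was 27.1%, 27.2% and 11.1%. A barcode sequence occurred in more than 1 library for 21 of the kept cells' sequences. Clusters were named from marker lists that held none of the 7 genes, which were also kept out of the clustering. There were 10376 enterocytes, 1109 early enterocytes, 224 ISC/proliferating cells (intestinal stem and dividing cells), 747 goblet cells, 300 tuft cells, 170 enteroendocrine cells (EECs), 24 Paneth cells and 1229 T cells. The 13 enterocyte markers summed to 559 to 999 UMIs per 10000 in enterocytes and to 148 to 600 in early enterocytes, which held the 6 early enterocyte markers at 25.7 to 33.5 against 9.67 to 11 in enterocytes. Ms4a18, Tstd1 and Pycard led the early enterocyte cluster. The 10 goblet markers summed to 3768 to 4132 in goblet cells. For 1840 cells, 1381 of them ileal, no class was named.

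A level is the UMI count of a gene in all cells of a class, divided by their total and given per 10000, and its exact 95% Poisson interval covers counting error only. Levels are compared for the same gene and not between genes. In the kept cells 1008947 UMIs of Reg3b were counted, 311179 of Reg3g, 259665 of Reg1, 202275 of Lypd8, 77647 of Leap2, 35556 of Reg3a and 2 of Retnlb. The Reg3 genes are close paralogs, and how reads that match more than 1 of them were treated is not given in the sources used here, so their separate counts carry that uncertainty.

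All Reg members lie on chromosome 6 of GRCm38. Reg3b (ENSMUSG00000071356) spans chr6:78370657-78373466 on the plus strand, Reg3a (ENSMUSG00000079516) chr6:78380709-78383827 (plus), Reg1 (ENSMUSG00000059654) chr6:78422711-78428667 (plus) and Reg3g (ENSMUSG00000030017) chr6:78466269-78468872 (minus). With Reg2 and Reg3d they form a cluster of 6 genes within 98.2 kb. Reg2 and Reg3d had only 17 and 71 UMIs in the kept cells, whereas each of their 4 neighbours in the cluster had at least 35556. Lypd8 (ENSMUSG00000013643) is at chr11:58379043-58390728 (plus), Leap2 (ENSMUSG00000036216) at chr11:53422181-53423170 (minus) and Retnlb (ENSMUSG00000022650) at chr16:48816856-48818892 (plus).

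The bases just before the starts of the Reg members, Reg3b, Reg3g, Reg3a and Reg1, are shown here. They are 100 bases before the RefSeq start (GRCm38.p6), read 5′ to 3′ on the strand of the gene, and capitals mark stretches of 8 or more bases that the promoter shares with another of the 4. The starts differ from the gene bounds above where the annotations differ. A RefSeq promoter was given for 5 of the 7 members, and Retnlb and Leap2 are named only.
Reg3b (chr6:78370785-78370884, plus): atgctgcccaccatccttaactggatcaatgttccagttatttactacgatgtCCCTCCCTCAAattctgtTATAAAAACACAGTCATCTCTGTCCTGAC
Reg3g (chr6:78468875-78468974, minus): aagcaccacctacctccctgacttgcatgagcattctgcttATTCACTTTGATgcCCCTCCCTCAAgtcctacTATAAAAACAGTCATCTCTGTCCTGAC
Reg3a (chr6:78380609-78380708, plus): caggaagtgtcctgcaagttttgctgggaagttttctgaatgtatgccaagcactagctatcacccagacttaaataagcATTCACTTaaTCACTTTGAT
Reg1 (chr6:78425883-78425982, plus): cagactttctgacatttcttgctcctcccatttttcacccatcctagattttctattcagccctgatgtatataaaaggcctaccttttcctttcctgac
Reg3b and Reg3g shared a run of 20 bases, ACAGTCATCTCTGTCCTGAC, and 0 of the 32847 other promoters shared a run this long with Reg3b. The longest run shared by Reg3g and Reg3a had 10 bases (TCACTTTGAT), a length that 1.42% of the other promoters reached with Reg3g. Over 250 bases and both strands, the TATA box core TATAAA was found before Reg3b, Reg3g and Reg1 and in 12.4% of all 32851 promoters. TTCNNNGAA, the core of a STAT dimer site, was found before Reg3b and in 7.02% of all promoters. These are matches of letters, no binding was measured, and a link between these bases and the levels below was not tested.

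T cells should lack these genes, so their level in the same library served as reference for free RNA. Reg3b stood in T cells of duodenum, jejunum and ileum at 5.40, 3.93 and 10.6 UMIs per 10000, which is 22.5%, 17.3% and 28.1% of the enterocyte level. For Reg3g these shares were 14.4%, 16.8% and 24.7%, and for Leap2 14.1%, 9.58% and 16.0%. Over the 13 enterocyte markers the median shares were 28.3%, 8.76% and 12.8% in that order. With the 10% of T cells richest in enterocyte markers left out, these medians were 8.72%, 2.97% and 2.29%. The Reg3b shares were then 12.7%, 10.8% and 17.4%. Thus every member was also counted in T cells of at least 2 libraries, apart from Retnlb. Lypd8 was the member with the highest ileal share in T cells, at 71.4% of the enterocyte level (1.12 against 1.57 UMIs per 10000).

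Shares of cells with a UMI did not separate enterocytes from T cells well. Reg3b was found in 96.5% of ileal enterocytes and in 92.6% of ileal T cells (median depth of all T cells 4263 UMIs, of all enterocytes 10048). After each cell was thinned to 800 UMIs, the shares were 53.0% and 38.3%. The duodenal shares after thinning were 39.0% in enterocytes and 20.0% in T cells, and those of the jejunum 38.2% and 11.1%. The levels are therefore the main readout below.

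Enterocytes, the absorptive cells, held all 6 counted members above the T cell level. For Reg3b the enterocyte levels were 24.0, 22.7 and 37.9 UMIs per 10000, from duodenum to ileum. Each of these lies above the T cell level of its library. The log2 fold change against T cells was 3.06 ± 0.58 (SE, 3 libraries, adjusted p = 3.87e-05, quasi-likelihood test of edgeR with a library block). Leap2 had the largest difference, 3.84 ± 0.42 (adjusted p = 5.79e-09, edgeR), and Lypd8 the smallest, 2.13 ± 0.49 (adjusted p = 0.000369, edgeR). The values for Reg3a, Reg3g and Reg1 were 3.47, 3.21 and 3.0. All 6 passed the threshold of 0.05 and were higher, against 32.1% of the 12748 genes tested.

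Reg1 in T cells of the duodenum was uneven. Its level there was 14.1 UMIs per 10000, 46.7% of the enterocyte level, but 218 of the 267 UMIs came from 1 of the 35 cells. Without that cell the level was 2.95. In T cells of the jejunum 0 UMIs of Reg1 were counted, which allows a level of up to 0.0504 (3 counts), and in the ileum 2 UMIs.

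**Figure D1:**
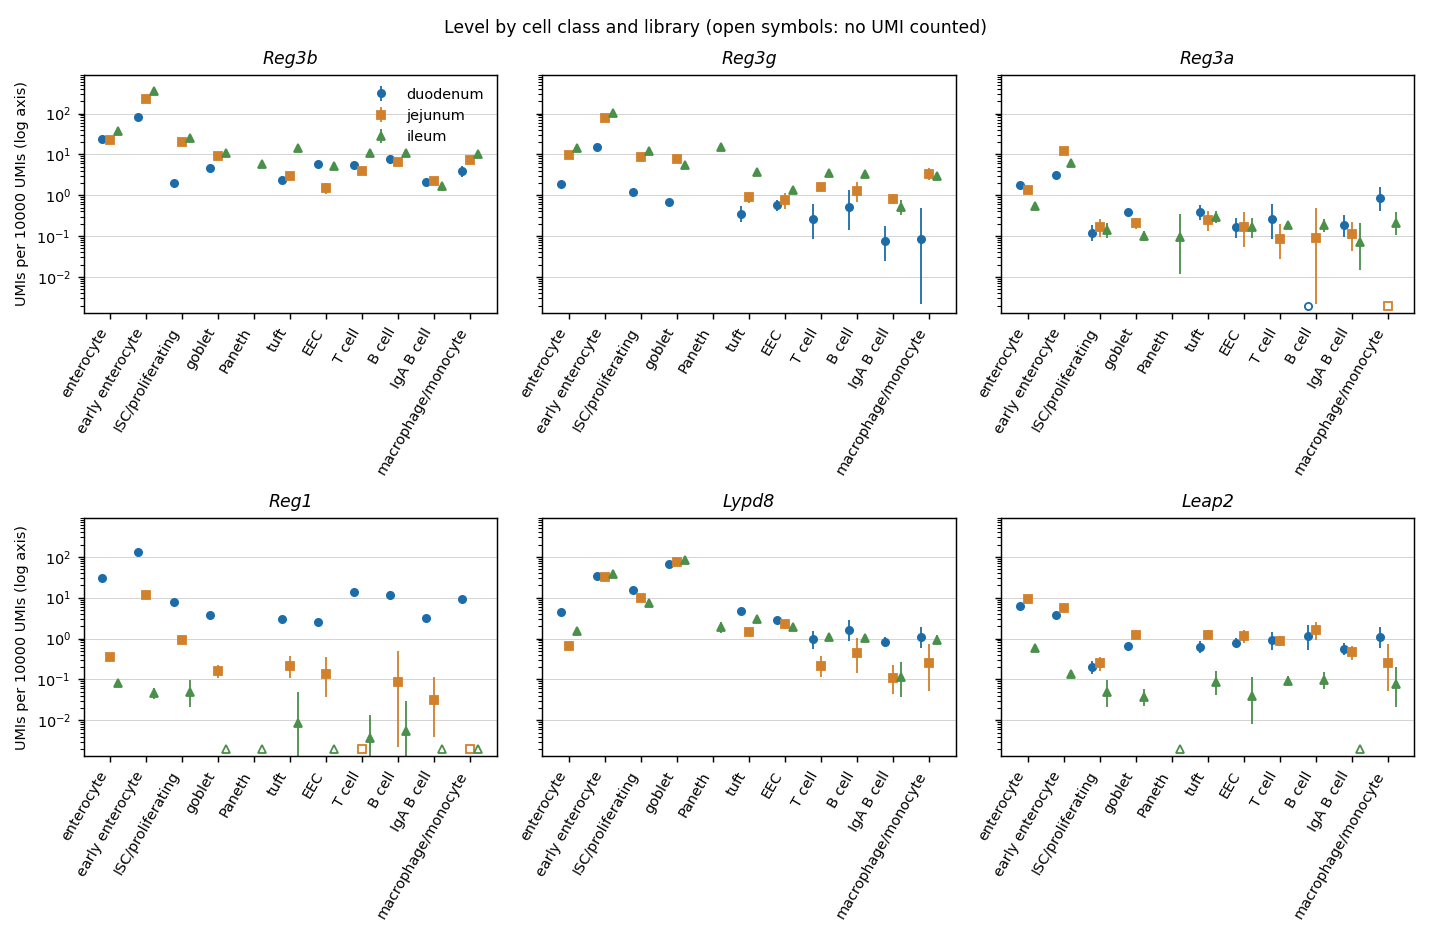
Level of 6 members (UMIs per 10000 UMIs, log axis) in each cell class, with 1 symbol per library for sums of at least 10 cells and bars for 95% Poisson intervals. Early enterocytes hold the highest symbols for Reg3b, from 80.0 to 365, and goblet cells those for Lypd8, from 66.7 to 81.8.

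Early enterocytes, the less mature absorptive cells, made up 6.65% of the kept cells and held 59.2% of all Reg3b UMIs, 56.2% of Reg3g, 51.4% of Reg3a and 49.1% of Reg1. These shares differed between libraries. From duodenum to ileum they were 41.4%, 58.8% and 65.1% for Reg3b and 26.7%, 59.7% and 64.3% for Reg3a, and in the duodenum enterocytes held more of both, 56.1% of Reg3b and 70.6% of Reg3a. In early enterocytes Reg3b reached 80.0 UMIs per 10000 in duodenal, 222 in jejunal and 365 in ileal ones. Reg3g reached 15, 79.8 and 103 in the same order. In all 3 libraries both genes stood higher in early enterocytes than in enterocytes. The log2 fold change was 2.48 ± 0.56 for Reg3b (adjusted p = 0.000757, edgeR) and 2.64 ± 0.45 for Reg3g (adjusted p = 2.62e-05, edgeR).

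Reg3a, the least counted of the 3 Reg3 members, had 3.08 UMIs per 10000 in early enterocytes of duodenum, 12.2 in those of jejunum and 6.21 in those of ileum, against 1.80, 1.33 and 0.560 in enterocytes. It was higher in early enterocytes in each library (log2 fold change 2.31 ± 0.45, adjusted p = 0.00013, edgeR). Lypd8 differed most, with 33.4, 31.2 and 38.2 against 4.37, 0.655 and 1.57, a log2 fold change of 4.00 ± 0.50 (adjusted p = 3.35e-07, edgeR). Reg1 was called as well (2.03 ± 0.77, adjusted p = 0.0358, edgeR), with 132 against 30.3 in the duodenum and 11.8 against 0.363 in the jejunum. In the ileum Reg1 had 0.0455 in early enterocytes against 0.0818 in enterocytes, and 255 of the 264 ileal enterocyte UMIs came from 1 cell. Without that cell the ileal enterocyte level was 0.00279. The Reg1 call was lost without the jejunum library (log2 fold change 0.48, adjusted p = 0.671, edgeR) and without the duodenum library (adjusted p = 0.0775, edgeR).

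Leap2 ran the other way. Its early enterocyte level was 3.84, 5.62 and 0.132 UMIs per 10000 along the 3 segments, below the enterocyte levels of 6.38, 9.30 and 0.575. The log2 fold change was -1.40 ± 0.36 (adjusted p = 0.00238, edgeR), and enterocytes held 87.7% of its UMIs. Thus 5 members were higher in early enterocytes, against 18.9% of all genes tested, and 1 was lower, against 20.8%. Compared with T cells all 6 were higher in early enterocytes, against 27.5% of genes, from 2.44 ± 0.41 for Leap2 to 6.13 ± 0.56 for Lypd8 on the log2 scale. Early enterocytes also had the most UMIs per cell (median 23517, against 10048 in enterocytes), and the part of this depth in the result was not tested.

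Within these classes the cells were spread widely. In ileal enterocytes the median cell had 7.16 Reg3b UMIs per 10000, the 90th percentile was 65.9 and the highest cell 1171. Ileal early enterocytes had a median of 289 and a 90th percentile of 690. Their jejunal counterparts had a median of 102 and a 90th percentile of 589. For Reg3g in the jejunum the early enterocyte median was 17.1 and the 90th percentile 263, so a part of the cells carried most of its UMIs.

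Goblet cells, which secrete mucus, were the class with the highest Lypd8 level. It was 66.7 UMIs per 10000 in the duodenum (95% interval 65.8 to 67.7), 75.1 in jejunal and 81.8 in ileal goblet cells. At least 1 UMI was found in 97.2%, 98.1% and 97.8% of goblet cells, and in 91.1%, 85.2% and 89.6% after thinning to 800 UMIs, against at most 7.55% of T cells after thinning. Goblet cells were 4.48% of the kept cells and held 36.0% of the Lypd8 UMIs. Against enterocytes the log2 fold change was 5.43 ± 0.54 (adjusted p = 3.22e-09, edgeR), and against T cells it was 7.56 ± 0.60 (adjusted p = 5.67e-11, edgeR).

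The other members were lower in goblet cells than in enterocytes or not called. Reg3b stood in goblet cells at 4.62, 9.18 and 10.7 UMIs per 10000, Reg1 at 3.80, 0.158 and 0, and Leap2 at 0.668, 1.23 and 0.0376, in the order duodenum, jejunum, ileum. Against enterocytes Reg3a (-2.49), Reg3b (-1.88 ± 0.55, adjusted p = 0.00689, edgeR), Reg1 (-3.22) and Leap2 (-3.33) were lower, and Reg3g with -0.99 ± 0.43 missed the threshold (adjusted p = 0.0683, edgeR). So 1 member was higher in goblet cells, against 17.3% of genes, and 4 were lower, against 21.2%. Set against T cells, Reg3g (2.22 ± 0.48, adjusted p = 0.00028, edgeR) and Lypd8 were higher in goblet cells, against 24.3% of genes, and the other 4 missed the threshold. Compared directly with early enterocytes, goblet cells had more Lypd8 (1.43 ± 0.45, adjusted p = 0.0123, edgeR; 17.4% of genes higher) and less of the other 5 members, from -1.93 for Leap2 to -5.25 for Reg1 (20.4% of genes lower). The Lypd8 difference missed the threshold without the jejunum library (adjusted p = 0.052, edgeR).

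**Figure D2:**
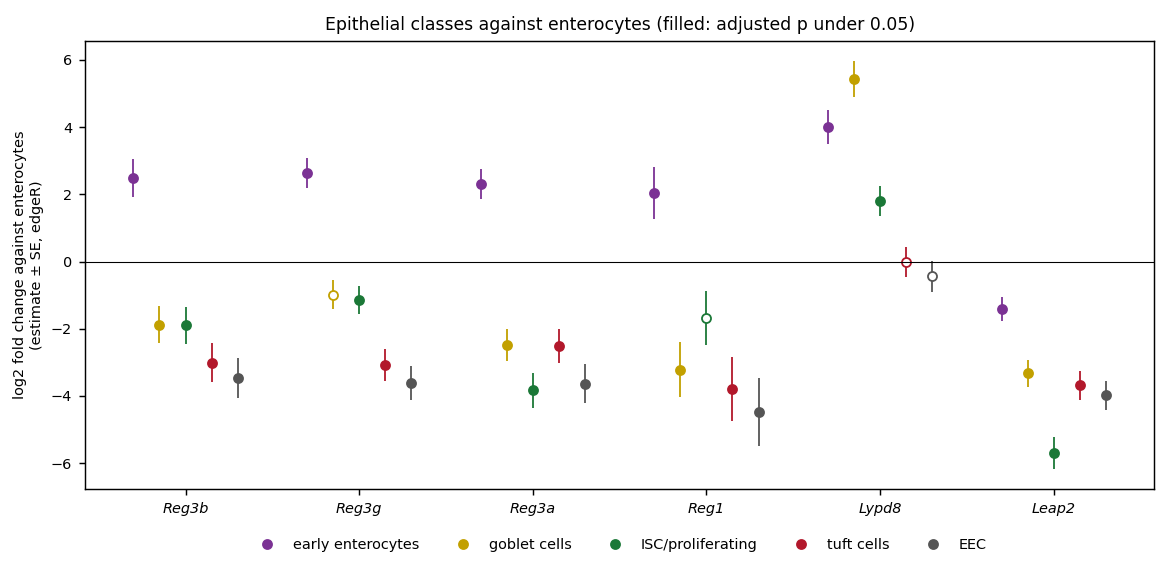
Log2 fold change of 5 epithelial classes against enterocytes for each member, with bars for the SE and filled symbols for an adjusted p under 0.05 in edgeR over the 3 libraries. Lypd8 stands above 0 in goblet cells (5.43), early enterocytes (4.00) and ISC/proliferating cells (1.80), whereas Leap2 lies below 0 in all 5 classes.

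In ISC/proliferating cells of the crypt, Lypd8 was at 15.7, 9.96 and 7.29 UMIs per 10000 from duodenum to ileum. All 3 values lie above those of enterocytes, with a log2 fold change of 1.80 ± 0.46 (adjusted p = 0.00114, edgeR) against enterocytes and 3.93 ± 0.52 against T cells (adjusted p = 5.87e-07, edgeR). Reg3g was at 1.21, 8.75 and 11.9, against 1.84, 9.51 and 14.5 in enterocytes. It was called below enterocytes (-1.14 ± 0.43, adjusted p = 0.0216, edgeR) and above T cells (2.07 ± 0.47, adjusted p = 0.000787, edgeR). The fit scales the totals by TMM and the levels do not, and the levels lie closer together than the fitted value. Without TMM fewer members were called between these cells and enterocytes. Reg3b at 2.02, 19.9 and 24.5 was lower than in enterocytes (-1.90) and not told apart from T cells (1.15 ± 0.55, adjusted p = 0.096, edgeR). Leap2 was near 0 in these cells, at 0.198, 0.245 and 0.0493, with -5.69 ± 0.48 against enterocytes and -1.85 ± 0.49 against T cells. Against enterocytes 1 member was higher (31.4% of genes) and 4 were lower (31.8% of genes), the fourth being Reg3a, while Reg1 missed the threshold. Against T cells 2 were higher (21.9% of genes) and 1, Leap2, was lower (20.1% of genes). The Leap2 difference from T cells changed sign, to 0.38, when the 10% of T cells richest in enterocyte markers were left out.

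Tuft cells, the chemosensory cells, and EECs, the hormone-producing cells, had little of the Reg genes and of Leap2. Reg3b stood at 2.34, 3.0 and 14.3 UMIs per 10000 in tuft cells and at 5.72, 1.5 and 5.33 in EECs, in the order duodenum, jejunum, ileum. In both classes the 4 Reg genes and Leap2 were lower than in enterocytes, which makes 5 members, against 24.3% of genes for tuft cells and 26.7% for EECs. The log2 fold changes ran from -2.51 (Reg3a) to -3.78 (Reg1) in tuft cells and from -3.47 (Reg3b) to -4.47 (Reg1) in EECs. None of these 5 was called against T cells in either class.

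Lypd8 was the exception in both classes. It stood at 4.62, 1.43 and 3.01 UMIs per 10000 in tuft cells and at 2.86, 2.21 and 1.94 in EECs. Enterocytes had 4.37, 0.655 and 1.57, so the level was higher in tuft cells in each library and in EECs in jejunum and ileum. In the fit, which scales the totals by TMM as the levels do not, Lypd8 differed from enterocytes by -0.01 ± 0.45 in tuft cells. In EECs it differed by -0.44 ± 0.46, and neither difference was called. Against T cells it was higher by 2.12 ± 0.49 in tuft cells (adjusted p = 0.000867, edgeR) and by 1.69 ± 0.49 in EECs (adjusted p = 0.00717, edgeR). This is 1 of 6 members higher in each class, against 20.6% of genes for tuft cells and 21.8% for EECs. Without the jejunum library the EEC call was lost (adjusted p = 0.15, edgeR).

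Paneth cells, the antimicrobial cells of the crypt base, were too few to test, since only the ileum gave a sum of 10 or more cells. Reg3g stood at 15.2 UMIs per 10000 in the 11 ileal Paneth cells (95% interval 13.6 to 17.0) and at 27.3 in 6 jejunal ones (23.7 to 31.4), against 1 UMI in 7 duodenal ones. Reg3b was at 5.66 in ileal Paneth cells, below the 10.6 of ileal T cells. Retnlb was counted with 2 UMIs, in 2 ileal Paneth cells, among all kept cells. In the 10376 enterocytes and 747 goblet cells 0 UMIs of Retnlb were found, so no level of it can be compared.

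The order of classes differed between the members, given here for the classes with tests. For Lypd8 it ran from goblet cells over early enterocytes and ISC/proliferating cells to enterocytes, tuft cells and EECs, of which the last 2 were not told apart from enterocytes, and then T cells. Reg3b, Reg3g, Reg3a and Reg1 had their highest levels in early enterocytes, apart from Reg1 in the ileum. Enterocytes came next, but goblet cells for Reg3g and ISC/proliferating cells for Reg1 (adjusted p = 0.0706, edgeR) were not told apart from them, and the untested Paneth cells of jejunum and ileum had Reg3g at or above the enterocyte levels of 9.51 and 14.5. Of the remaining epithelial classes, goblet and ISC/proliferating cells were called above T cells for Reg3g and no class for the other 3 Reg genes. For Leap2 enterocytes came first, then early enterocytes, and none of the remaining classes was called above T cells. Among the other immune cells, Reg3b reached 6.53 to 11 UMIs per 10000 in B cells and 3.92 to 10.4 in macrophages/monocytes, against 3.93 to 10.6 in T cells. In IgA B cells it was lower, at 1.64 to 2.26.

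Enterocytes change as they migrate from the crypt mouth to the villus tip. The position of a cell was not recorded, so the 11485 enterocytes and early enterocytes were ordered by 9 tip genes against 8 bottom genes and cut into 5 zones of equal size within each library, zone 1 being the bottom and zone 5 the tip. Of these cells 12.0% lay within 0.05 of a cut. Of 5 genes held out of the score as a check, 3 followed the axis and 2 did not. Krt20, a marker of mature villus cells, rose (log2 fold change 3.29 ± 0.21) from 4.25 to 36.3 UMIs per 10000 from zone 1 to zone 5 in the duodenum, from 7.50 to 45.4 in the jejunum and from 8.95 to 44.9 in the ileum. Lgals3, also known from the villus, was higher in zone 5 (2.98 ± 0.27), and the proliferation gene Mki67 was lower (-1.75 ± 0.53). The proliferation-associated Stmn1 missed the threshold (-0.58 ± 0.29, adjusted p = 0.0856, edgeR), and Olfm4, a crypt stem cell gene, was higher in zone 5 (1.15 ± 0.32, adjusted p = 0.00635, edgeR). Early enterocytes made up 40.1 to 54.2% of zone 1 and at most 1.66% of any other zone. The bottom genes Gpx2, Cps1 and Ccl25 are also early enterocyte markers. The zone results and those of early enterocytes are therefore not independent. Median UMIs per cell were lower in zone 5 than in zone 1 in each library, going from 18456 to 8456 in the duodenum and from 14964 to 7266 in the ileum, and the part of depth in the zone results was not tested.

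Reg3b fell along the zones in each library. In the duodenum it stood at 70.0, 31.6, 21.3, 13.9 and 4.08 UMIs per 10000 from zone 1 to zone 5. The jejunum had 149, 27.2, 12.0, 6.47 and 3.84, and the ileum 295, 39.1, 17.3, 9.37 and 5.87. Every step was downwards. The zone 5 level lay below that of T cells in the duodenum and the ileum. In the jejunum it lay within the counting interval of the T cell level. With the 10% of T cells richest in enterocyte markers left out, T cells stood at 3.04, 2.46 and 6.62. The zone 5 level then lay above this reference in duodenum and jejunum and below it in the ileum. The log2 fold change of zone 5 against zone 1 was -4.55 ± 0.40 (adjusted p = 7.54e-07, edgeR).

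Reg3g fell from 11.5 to 0.436 UMIs per 10000 in the duodenum, from 53.8 to 2.70 in the jejunum and from 86.9 to 3.19 in the ileum. This is a log2 fold change of -4.00 ± 0.17 (adjusted p = 4.55e-09, edgeR), with the smallest SE among the members. T cells had Reg3g at 0.265, 1.60 and 3.59, so its ileal zone 5 level lay below this reference. With the 10% of T cells richest in enterocyte markers left out, the ileal reference was 2.21, below zone 5. Reg3a fell from 3.61 to 0.215, from 9.05 to 0.0899 and from 4.97 to 0.0894 (-5.28 ± 0.68, adjusted p = 1.95e-05, edgeR). Lypd8 in absorptive cells fell from 24.2 to 0.823, from 17.1 to 0.228 and from 27.5 to 0.581 (-5.11 ± 0.55, adjusted p = 4.18e-06, edgeR). Outside zone 1, Lypd8 was at most 1.03 in the jejunum and the ileum, and between 6.36 and 0.823 in the duodenum. T cells had Lypd8 at 0.953, 0.218 and 1.12 and Reg3a at 0.265, 0.0840 and 0.186. The zone 5 levels of both genes thus lay below this reference in duodenum and ileum and near it in the jejunum. Their folds are limited by it. With the 10% of T cells richest in enterocyte markers left out, the duodenal reference was 0.609 for Lypd8 and 0.152 for Reg3a, below zone 5. In the ileum it stayed above zone 5 for both genes, and in the jejunum it went from just below zone 5 to above it.

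Reg1 was a duodenal gene along the whole axis. It stood there at 106, 46.3, 26.2, 12.8 and 5.01 UMIs per 10000. In the jejunum it had 6.87 in zone 1 and 0.203 in zone 2, and in the ileum 0.0284 in zone 1, while the ileal value of 0.370 in zone 2 came almost wholly from the single cell described above. The log2 fold change of zone 5 against zone 1 was -5.42 ± 1.42 (adjusted p = 0.00433, edgeR).

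Leap2 was highest in zone 2 in 3 of 3 libraries. The duodenum had 6.18, 8.28, 6.62, 4.54 and 2.11 UMIs per 10000 from zone 1 to zone 5. The jejunum had 11.1, 12.1, 9.23, 5.91 and 2.86, and the ileum 0.401, 1.14, 0.614, 0.209 and 0.0606. Zone 2 was higher than zone 1 by 0.84 ± 0.30 (adjusted p = 0.0448, edgeR), and zone 5 lower than zone 1 by -1.34 ± 0.30 (adjusted p = 0.00159, edgeR). The difference between zones 5 and 1 missed the threshold with cells of at most 20% mitochondrial UMIs (-0.72, adjusted p = 0.173, edgeR).

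**Figure D3:**
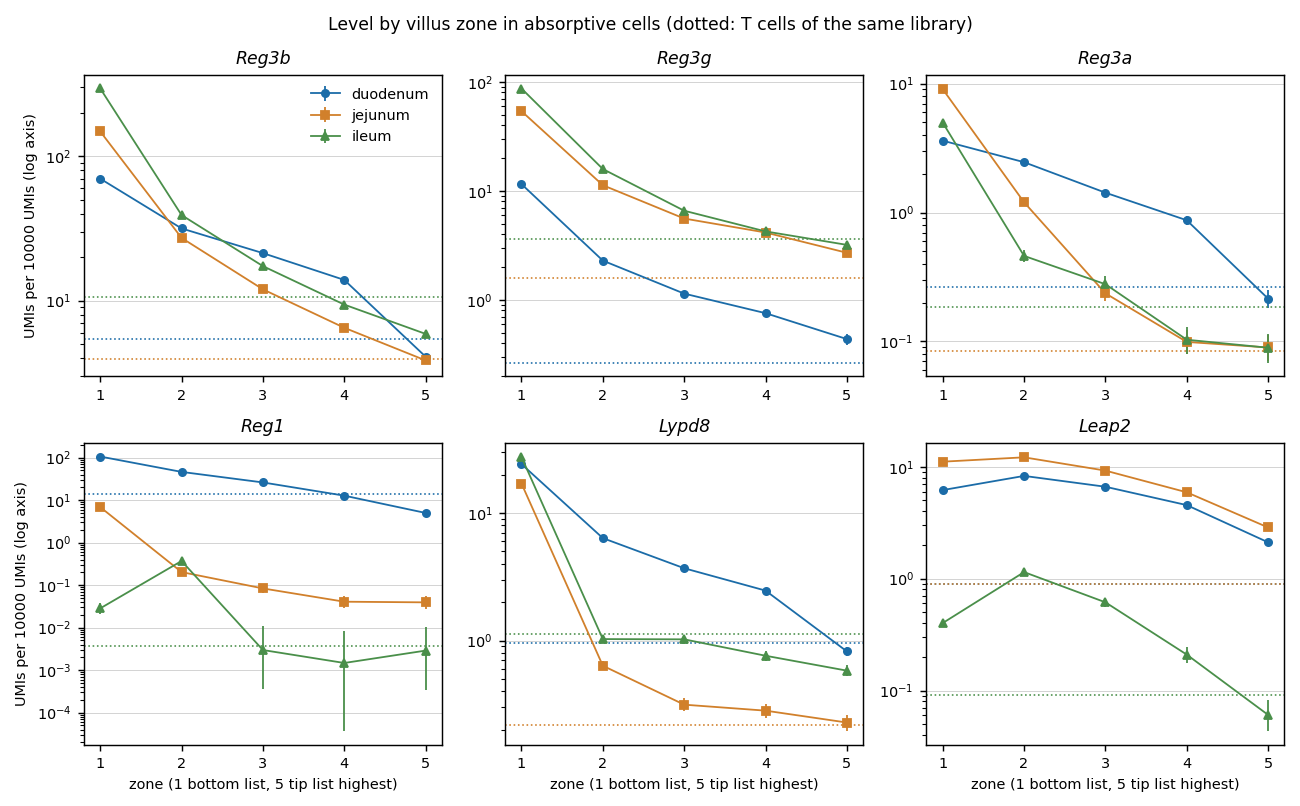
Level of 6 members (UMIs per 10000 UMIs, log axis) in zones 1 to 5 of the absorptive cells, with 1 line per library, bars for 95% Poisson intervals and dotted lines at the T cell level of the same library where it is above 0. The lines of Reg3b fall from between 70.0 and 295 in zone 1 to between 3.84 and 5.87 in zone 5, whereas those of Leap2 peak in zone 2.

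All 6 members were lower in zone 5 than in zone 1, against 37.5% of the 11103 genes tested. For Reg3g and Lypd8 the step from zone 1 to zone 2 was the greater part of the fall on the log2 scale. The largest fitted step of Reg1 was from zone 2 to zone 3 (-2.70 ± 1.31, not called). It includes the ileal zone 2 value of 0.370, which came almost wholly from a single cell. Jejunal Reg1 fell most from zone 1 to zone 2 (6.87 to 0.203), and in the duodenum the step from zone 2 to zone 3 (46.3 to 26.2) was the smallest. Reg3a (-2.49), Reg3b (-2.20), Reg3g (-2.24) and Lypd8 (-3.78 ± 0.52) were lower in zone 2, which is 4 of 6 against 18.1% of genes, and Leap2 was the 1 higher member, against 16.4% of genes. From zone 2 to zone 3 only Reg3g was called (-1.0 ± 0.16, adjusted p = 0.0412, edgeR), against 0.027% of genes lower. From zone 3 to zone 4 no member was called, against 0.00901% of genes lower, and Reg3g and Leap2 had an unadjusted p under 0.05, as had 681 of the 11103 genes in this direction. From zone 4 to zone 5 none was called either, against 0.117% lower, with Reg3b, Reg3g and Leap2 at an unadjusted p under 0.05, as were 1338 genes in this direction.

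Genes known to work beside the members were followed along the same zones. Of 32 other antimicrobial and barrier genes listed, 30 were in the files and 19 were tested. Of the 19, 13 were higher in zone 5 and 6 lower, against 3729 higher and 4165 lower of the 11103 genes tested. The median log2 fold change of the 19 was 1.34, against -0.10 over all genes tested. Of these the largest differences were Sprr1a (8.83), a cornified envelope precursor, and its relatives Sprr2a1 (3.30) and Sprr2a3 (3.28) upwards, whose reads may be shared with other Sprr2a copies, and Ccl28 (-5.43), a chemokine for IgA-producing cells, Dmbt1 (-4.42), a mucosal scavenger protein, downwards. Pigr, the receptor that carries IgA across the epithelium and named after its value was seen, was lower by -3.09. The higher ones included genes of goblet and Paneth cells (Clca1, Muc2, Zg16, Lyz1, Ang4, Itln1 and Mptx2, by 0.67 to 1.91). In the same enterocytes the 10 goblet markers summed to 4.80 to 15.4 UMIs per 10000, and the part of free RNA in those differences was not tested.

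Of 24 listed genes of IL-22, IL-18 and MyD88 signalling, all in the files, 16 were tested. Over all 11103 genes tested, 3729 were higher in zone 5 and 4165 lower. Of the 16, 9 were higher, 4 lower and 3 not called, with a median of 0.76. The lower ones were Pycard (-5.46), the inflammasome adaptor, Nlrp6 (-4.78), a sensor that acts through it, Il18 (-3.27), the cytokine it releases, and Casp1 (-2.93), the protease that matures it. Il22ra1, the epithelial chain of the IL-22 receptor, was higher (2.30). Stat3 was higher by 1.30 and Myd88 differed by 0.21 ± 0.18, which was not called. Of 3 other Reg family genes only Reg4 was tested (1.52, higher), and of 3 genes of the ghrelin pathway only Ghrl, the hormone gene (1.77, higher). Reg4 was among the leading genes of the EEC cluster, and the part of free RNA in the Reg4 and Ghrl values was not tested.

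The genes most like each member over the 15 sums of zone and library were found by Pearson correlation of log2 levels among 2495 genes. This is a description, since the sums share libraries and the zone score. For Reg3b they were Laptm4a (0.975), Klf5 (0.974) and Nsa2 (0.972), and for Lypd8 Gpx1 (0.981), Pycard (0.980) and Hnrnpf (0.975). Reg3g had Gpx2 (0.962), itself a gene of the zone score, Aldh9a1 (0.941) and Mgst1 (0.940), and Reg3a had Ndufa9 (0.969), Uqcrc2 (0.967) and Cox8a (0.966). Reg1 went with Eno1 (0.969), Gapdh (0.949) and Tkfc (0.944), and Leap2 with Mttp (0.968), Sec31a (0.967) and Slc35c2 (0.967).

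Across single enterocytes, as a description, Reg3b and Reg3g had a Spearman correlation of 0.337 in 3200 duodenal, 0.633 in 3298 jejunal and 0.562 in 3878 ileal cells. These cells share a library, and depth and ambient RNA enter both genes. Reg3a and Reg3b had 0.533, 0.316 and 0.359 in the same order. In the duodenum Reg1 and Lypd8 had 0.508. Reg3g and Leap2 had -0.288 in the jejunum, the lowest value among the pairs of members.

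Between segments, each member had its own pattern in enterocytes, given here without a test. Reg3g was higher distally, from 1.84 UMIs per 10000 in duodenum to 9.51 in jejunum and 14.5 in ileum, 7.89-fold higher in the ileum than in the duodenum. Reg1 was at 30.3, 0.363 and 0.0818, that is 83.6-fold higher in the duodenum than in the jejunum. Leap2 was at 6.38, 9.30 and 0.575, 16.2-fold higher in the jejunum than in the ileum. The counting intervals of these levels did not overlap between segments, but they cover counting error within 1 library each. They are narrow, and that of the Reg3b ratio of jejunum over duodenum, 0.947 (0.939 to 0.956), also left out equality. Over the alternatives the log2 ratio ran from 2.13 to 3.07 for Reg3g (ileum over duodenum, reported 2.98), from -7.23 to -4.54 for Reg1 (jejunum over duodenum, reported -6.39) and from -4.97 to -3.47 for Leap2 (ileum over jejunum, reported -4.01).

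Reg3a was at 1.80, 1.33 and 0.560 UMIs per 10000 in enterocytes of duodenum, jejunum and ileum. Lypd8 was at 4.37, 0.655 and 1.57, and with the T cell level of each library subtracted at 3.42, 0.437 and 0.449. Reg3b differed least, with 24.0, 22.7 and 37.9. A fold of 2 or more from the duodenum to the jejunum was reached upwards by Reg3g (5.62% of genes) and downwards by Reg1 and Lypd8 (5.37% of genes). From the jejunum to the ileum Lypd8 was 2.39-fold higher (8.55% of genes) but 1.03-fold with the T cell level subtracted, and Leap2, Reg3a and Reg1 at least 2-fold lower (4.62% of genes). These shares are over genes with a mean level of at least 0.5, which Reg1 did not reach in that pair. From the duodenum to the ileum Reg3g was higher (15.4% of genes) and Reg1, Leap2, Reg3a and Lypd8 were lower (11.4% of genes). With the zones of absorptive cells weighted equally the log2 ratios of ileum over duodenum were -0.54 for Reg3a and -0.28 for Lypd8, both under 2-fold. The kept share and the mitochondrial share of the libraries move with these comparisons, and with cells of at most 20% mitochondrial UMIs the log2 ratio of Reg3b between ileum and duodenum went from 0.66 to -0.20.

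In early enterocytes all 3 Reg3 genes were lowest in the duodenum. From the duodenum to the jejunum Reg3a was 3.95-fold, Reg3b 2.77-fold and Reg3g 5.30-fold higher (2.94% of genes), and Reg1 was 11.3-fold lower (1.53% of genes). From the duodenum to the ileum the same 3 Reg3 genes were 2.02-fold, 4.57-fold and 6.81-fold higher (8.1% of genes), while Reg1 and Leap2 (29.0-fold) were lower (6.91% of genes). Lypd8 stayed between 31.2 and 38.2 UMIs per 10000. In goblet cells Lypd8 was 1.23-fold and Reg3g 7.83-fold higher in the ileum than in the duodenum.

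Within zones the ratios also varied. In zone 1 the log2 ratio of ileum over duodenum was 2.08 for Reg3b, 0.46 for Reg3a and 0.19 for Lypd8. In zone 3 it was -0.30 for Reg3b (95% counting interval -0.33 to -0.27), -2.36 for Reg3a and -1.85 for Lypd8. The sign thus differed between zones 1 and 3 for these 3 genes. For Reg3b it was also positive in zone 2 (0.31) and zone 5 (0.52) and negative in zone 4 (-0.57), whereas Reg3a and Lypd8 were negative from zone 2 to zone 5. Reg3g kept a positive ratio, 2.91 in zone 1 and 2.53 in zone 3, and Leap2 a negative one, from -2.86 in zone 2 to -5.12 in zone 5.

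**Figure D4:**
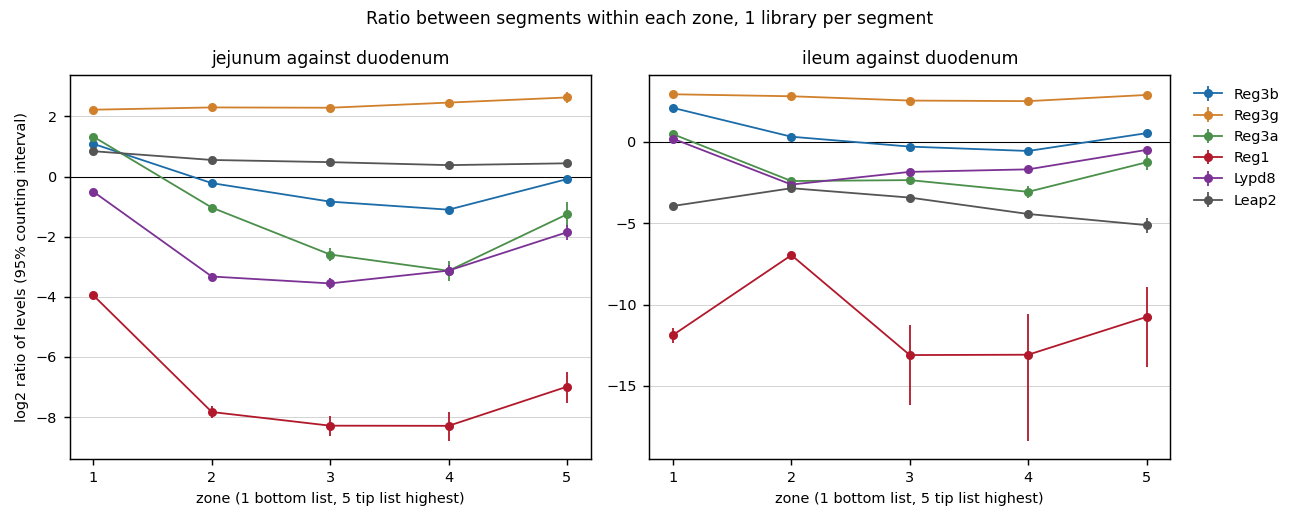
Log2 ratio of the level in the jejunum (left) and the ileum (right) over the duodenum within each zone, 1 line per member, with bars for 95% counting intervals and 1 library per segment. For ileum over duodenum, Reg3g lies above 0 in all 5 zones, whereas Reg3b passes from 2.08 in zone 1 to -0.30 in zone 3 and back to 0.52 in zone 5.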

How the data were processed

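Cells of duodenum, jejunum and ileum were measured in 1 library each (10x 3′ v3). The authors deposited whole UMI counts per gene and barcode, made with Cell Ranger 3.0.2 on GRCm38 and neither normalized nor filtered further, and summing to 98518847, 87656078 and 78074516 UMIs. The study's cell filters were applied, and the libraries were integrated and clustered in Seurat 5.3.0 (R 4.3.3; 2000 variable genes, 30 components, resolution 0.8). Clusters with markers of several classes were split at 0.5, and an absorptive cluster with no leading marker of its own stayed unnamed, rules chosen after the clusters were seen. No doublet caller was run. Counts were summed per library and class (at least 10 cells) or zone and tested in edgeR 4.0.16 (filterByExpr, TMM, quasi-likelihood, library as a block, Benjamini-Hochberg over all genes tested, threshold 0.05), checked on simulated data. The 3 sums of a class come from different segments of the same pooled animals. With the library as a block, p-values measure how differences between classes or zones vary over these libraries, not over animals. For each gene the spread was estimated jointly from the sums of all named classes, or of all zones. Retnlb was too low to be tested. The named genes are the 7 members, the members of fixed lists with the 5 largest changes, the 3 genes most like each member (levels of at least 0.5 UMIs per 10000, pseudocount 0.01) and markers, with further list genes named after their values were seen. Members and lists were chosen with earlier results of these data known. Positions come from GENCODE M21, which held 99.6% of the gene identifiers. Alternatives covered normalization, DESeq2 1.42.0, filters, clustering, cells counted, the zone score, the block and leaving out each library. Levels were computed in Python 3.11.15.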

Additional observations from a re-analysis of the deposited data

Results flagged for a closer look

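The change between segments ran in opposite directions in early enterocytes and enterocytes for 3 members, and the difference itself was not tested, since each segment has 1 library. From the duodenum to the jejunum the log2 ratio of Reg3a was 1.98 in early enterocytes and -0.44 in enterocytes, 2.42 apart, and that of Reg3b was 1.47 and -0.08, 1.55 apart. From the duodenum to the ileum Reg3a had 1.01 and -1.69, 2.70 apart, and Lypd8 had 0.20 and -1.48, 1.68 apart. The enterocyte value of Reg3b (-0.08) is near 0 and was positive under 5 alternatives, from 0.016 with the T cell level subtracted to 0.69 with early enterocytes and the unnamed cluster described next added. The jejunal value of Reg3a (-0.44) was positive under 2, at 0.32 with zones weighted equally and 0.57 with those cells added.

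A cluster of 1174 cells (126 duodenal, 204 jejunal and 844 ileal) that the comparisons leave out was led by Gm26917 and Fgf15 and left unnamed. The early enterocyte list scored highest in it without being clearly ahead. It held several members above the level of T cells and enterocytes of the same library. In duodenum, jejunum and ileum Reg3b stood in it at 26.7, 135 and 118 UMIs per 10000, and Reg3g at 6.53, 73.9 and 47.5. Jejunal and ileal cells had Reg3a at 4.15 and 3.25, whereas the duodenal level of 1.57 lay below the 1.80 of enterocytes. Reg1 was at 61.2 in the duodenum and 2.15 in the jejunum, and Lypd8 at 8.07, 9.06 and 8.30. Ileal Reg1 (0.0685) lay below the enterocyte level of 0.0818. Leap2 lay below enterocytes in each library, at 3.96, 2.15 and 0.277 against 6.38, 9.30 and 0.575. These cells had a median of 4262 UMIs and 20.4% mitochondrial UMIs.

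Retnlb had 10 UMIs in ileal barcodes outside the filters, against 2 in kept cells. They lay in 3 barcodes, each above 50000 UMIs, in which the 11 Paneth cell markers summed to 6381 and the 10 goblet markers to 286 UMIs per 10000. The 2 kept cells with Retnlb had these lists at 6700 and 88.8.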

How the results depend on the processing

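Of 1157 values of members in tests under an alternative, 1079 kept their side of the threshold, 40 lost the call, 36 gained one and 2 called values reversed. The sign was opposite to the reported one in 58. Without the library block the number of members called fell from 6 to 3 in early enterocytes and from 5 to 2 in goblet cells, both against enterocytes. Of the 12748 genes tested, those called went from 5058 to 3750 and from 4912 to 3946 in these comparisons. The genes called for zone 5 against zone 1 went from 7894 to 5117. The labels carry no replicate numbers. Without TMM the ISC/proliferating count went from 5 to 3, while the genes called there went from 8060 to 8169. Leap2 reversed in ISC/proliferating against T cells (0.38, without the 10% of T cells richest in enterocyte markers) and in goblet cells against early enterocytes (0.016, resolution 1.2). Leaving out each library in turn gave 5 to 6 members called for early enterocytes, 5 to 6 for goblet, 4 to 6 for ISC/proliferating, 5 to 5 for tuft cells and EECs, and 6 to 6 for T cells and zones. Of 10637 to 13049 genes tested, those called were 2808 to 4859 for early enterocytes, 3146 to 4489 for goblet and 6347 to 7656 for ISC/proliferating. They were 4320 to 5380 for tuft cells, 4907 to 6224 for EECs, 5665 to 7930 for T cells and 6239 to 7562 for zones. Without the jejunum library the genes called went from 5058 to 2808 for early enterocytes and from 4912 to 3146 for goblet cells against enterocytes, and from 4819 to 2849 between these 2 classes. Without the ileum library they went from 6325 to 4081 for goblet cells, 5057 to 3000 for tuft cells, 5031 to 2917 for EECs and 5355 to 3176 for ISC/proliferating against T cells, and tuft cells had 3371 with only the classes compared in the fit. Between segments 34 of 144 values stayed within their counting interval, 109 moved and 1 that had been at least 2-fold reversed, Lypd8 in the ileum over the duodenum, from -1.48 to 0.041, with early enterocytes and the unnamed cluster added (an alternative chosen after seeing the data). The sign was opposite in 9 of the 144, the other 8 being values of Reg3b and Reg3a under 2-fold. The number of members at least 2-fold apart between ileum and jejunum went from 4 to 2 with zones weighted equally and to 2 without the 10% of cells with most UMIs. The cause of these changes was not tested. Without integration the cells named early enterocytes were almost all ileal (908 of 914 and 757 of 758 in 2 clusters), so that comparison has no value there, and with only EECs and T cells in the fit Reg1 was filtered out and has none. Single pooled libraries, mitochondrial shares that differ between them, and few T cells in the duodenum (35) limit every segment value, and Reg1 in the ileum rests on 1 enterocyte.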

Other observations

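Reg4, the Reg family gene on chromosome 3, had 11099 UMIs in the kept cells and differed from the other family genes in where it was counted. Reg4 stood at 123 UMIs per 10000 in duodenal EECs, 2.45 in jejunal and 4.42 in ileal ones.

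A cluster of 30 cells, 28 of them ileal, led by Gp2 and Ccl20, genes known from the epithelium over lymphoid follicles, was left unnamed. Its ileal cells held Reg3g at 7.47, Lypd8 at 6.13 and Reg3b at 4.21 UMIs per 10000, of which Reg3b lay below the ileal T cell level of 10.6 and the other 2 above their T cell levels of 3.59 and 1.12.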
